A study of Mus musculus with 24 samples.

Results

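The CD8 and cytotoxic effector genes are 10 genes, Cd8a, Cd8b1, Gzma, Gzmb, Gzmk, Prf1, Ifng, Nkg7, Eomes and Tbx21, found by their Ensembl identifiers in GENCODE M21 among the 55401 genes of the count table. The question was whether the CD8 transcripts moved together with the effector transcripts across 24 tumors of TC2Ras, a mouse prostate adenocarcinoma line made from TRAMP-C2 cells that carry activated H-Ras. All tumors grew in male C57/BL6 mice of 8 to 10 weeks that received a plasmid by intramuscular injection with sonoporation. In the subcutaneous (SC) model, harvested after 1 week, 2 tumors were from mice given the empty vector (control) and 2 from mice given the IL-27 vector. In the intratibial model, the TC2Ras-Luc tumors were treated with the empty or the IL-27 vector and with PvP, the vehicle, or cabozantinib (cabo), a tyrosine kinase inhibitor given by daily gavage for 2 weeks. At day 14 the control (empty vector and PvP), IL-27 (with PvP), cabo (with the empty vector) and IL-27+cabo groups had 3 tumors each, and at the end of the study (EOS) they had 2 each. EOS mice were taken at the ethical endpoint, on days the labels do not give. The plasmid was delivered to the muscle and not to the tumor, and the same treated or control tumors enter more than 1 comparison, so comparisons that share them are not independent.

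CD8 is the co-receptor of T cells that recognise antigen on MHC class I, and on most such cells it is a pair of an alpha chain (Cd8a) and a beta chain (Cd8b1). Cd8a without the beta chain is also made by some dendritic cells and other lymphocytes. Cytotoxic T cells and natural killer (NK) cells kill through granules that hold perforin (Prf1), which makes pores, and granzymes (Gzma, Gzmb, Gzmk), which are proteases, and Nkg7 is a protein of those granules. Interferon gamma (Ifng) is the cytokine both cell types release, and T-bet (Tbx21) and Eomes are the T-box transcription factors that drive the program. In a bulk tumor fewer cells of a type cannot be told apart from less RNA per cell.

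Cd8a and Cd8b1 are neighbours on chromosome 6 of GRCm38, at chr6:71373427-71379173 and chr6:71322788-71337494, both on the plus strand. Gzma and Gzmk lie on chromosome 13 (chr13:113093825-113100981 and chr13:113171608-113225908, minus strand), and Gzmb lies on chromosome 14 (chr14:56258838-56262260, minus strand). Prf1 (chr10:61297833-61304680) and Ifng (chr10:118441046-118445892) are on chromosome 10, Nkg7 is at chr7:43437073-43438249, Eomes at chr9:118478212-118486132, and Tbx21 at chr11:97098071-97115331 on the minus strand. The model of Gzmk overlaps Esm1 on the other strand, that of Ifng overlaps Gm49751 on the same strand, and that of Eomes overlaps the antisense gene Gm33460, so their counts are uncertain to that extent. RefSeq promoter windows on GRCm38.p6 were found for 9 of the 10 genes, and the 250 bases before the start were searched on both strands for GGTGTGA, a T-box half-site, and TGTGGTT, a Runx site, since T-box and Runx factors are the textbook regulators of these genes. The first was in 3.33% and the second in 4.4% of all 32851 windows. Nkg7 and Gzmk held 1 T-box half-site each, and Gzma and Gzmb held 1 Runx site each. The granzymes did not share a pattern across tumors (below), and their stretches around the match are shown for that reason, 5′ to 3′ on the gene's strand, with the match in capitals.
Gzma, chr13:113100982-113101092, Runx site on the opposite strand: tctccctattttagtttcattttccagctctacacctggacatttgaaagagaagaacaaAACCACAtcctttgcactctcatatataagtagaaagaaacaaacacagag
Gzmb, chr14:56262335-56262428, Runx site: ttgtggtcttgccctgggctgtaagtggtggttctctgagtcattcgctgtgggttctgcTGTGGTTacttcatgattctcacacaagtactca
Gzmk, chr13:113180974-113181100, T-box half-site: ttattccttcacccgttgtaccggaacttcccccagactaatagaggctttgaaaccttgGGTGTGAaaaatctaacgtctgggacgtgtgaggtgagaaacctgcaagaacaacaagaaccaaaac
The Gzmk window lies inside the longer GENCODE model of that gene, in none of its exons. The Nkg7 match lies 13 bases before the RefSeq start, but inside the GENCODE model of Nkg7. The window of Nkg7 overlaps an exon of that gene. A match is only a description of the letters, and no binding was measured.

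The 24 libraries held between 63729005 and 83782258 counts on genes, so 3 counts, the limit that a count of 0 allows, correspond to between 0.0358 and 0.0471 CPM, counts scaled to library size. Between 30.4% and 35.5% of the values from 1 to 20 in a library were multiples of 4, and no source says why, so intervals from the counts alone may be too narrow. The IL-27+cabo tumor of mouse 20 stood apart: its library was the smallest, with the lowest number of detected genes (21269). Of 7 tumor epithelium genes at most 1 and of 15 T cell genes at most 2 were at 0 in any tumor. Where the labels name mice, tumors are separate animals. For the SC tumors they do not, so p-values there may measure technical spread.

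Gzmb and Prf1 were the most abundant of the 10 genes, and the CD8 transcripts were scarce. Per kilobase of exon, the median over 24 tumors was 7.86 CPM for Gzmb and 3.50 CPM for Prf1. It was 1.14 CPM for Nkg7, 0.678 CPM for Eomes and 0.641 CPM for Gzma. Cd8a had a median of 0.0933 CPM per kilobase, Cd8b1 0.152, Tbx21 0.157, Ifng 0.0987 and Gzmk 0.0596. Gzmb, Prf1, Nkg7, Eomes and Tbx21 had counts in all 24 tumors. Gzmk was at 0 in 10 tumors, Cd8b1 and Ifng in 4 each, and Cd8a and Gzma in 3 each. The order was not the same in every group. In SC tumors with IL-27, Gzmb was at 15.7 ± 8.11 and Gzma at 13.3 ± 11.1 CPM per kilobase, and Cd8a, at 1.10 ± 0.69, overlapped Prf1, at 0.687 ± 0.031 (SD, n = 2).

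**Figure D1:**
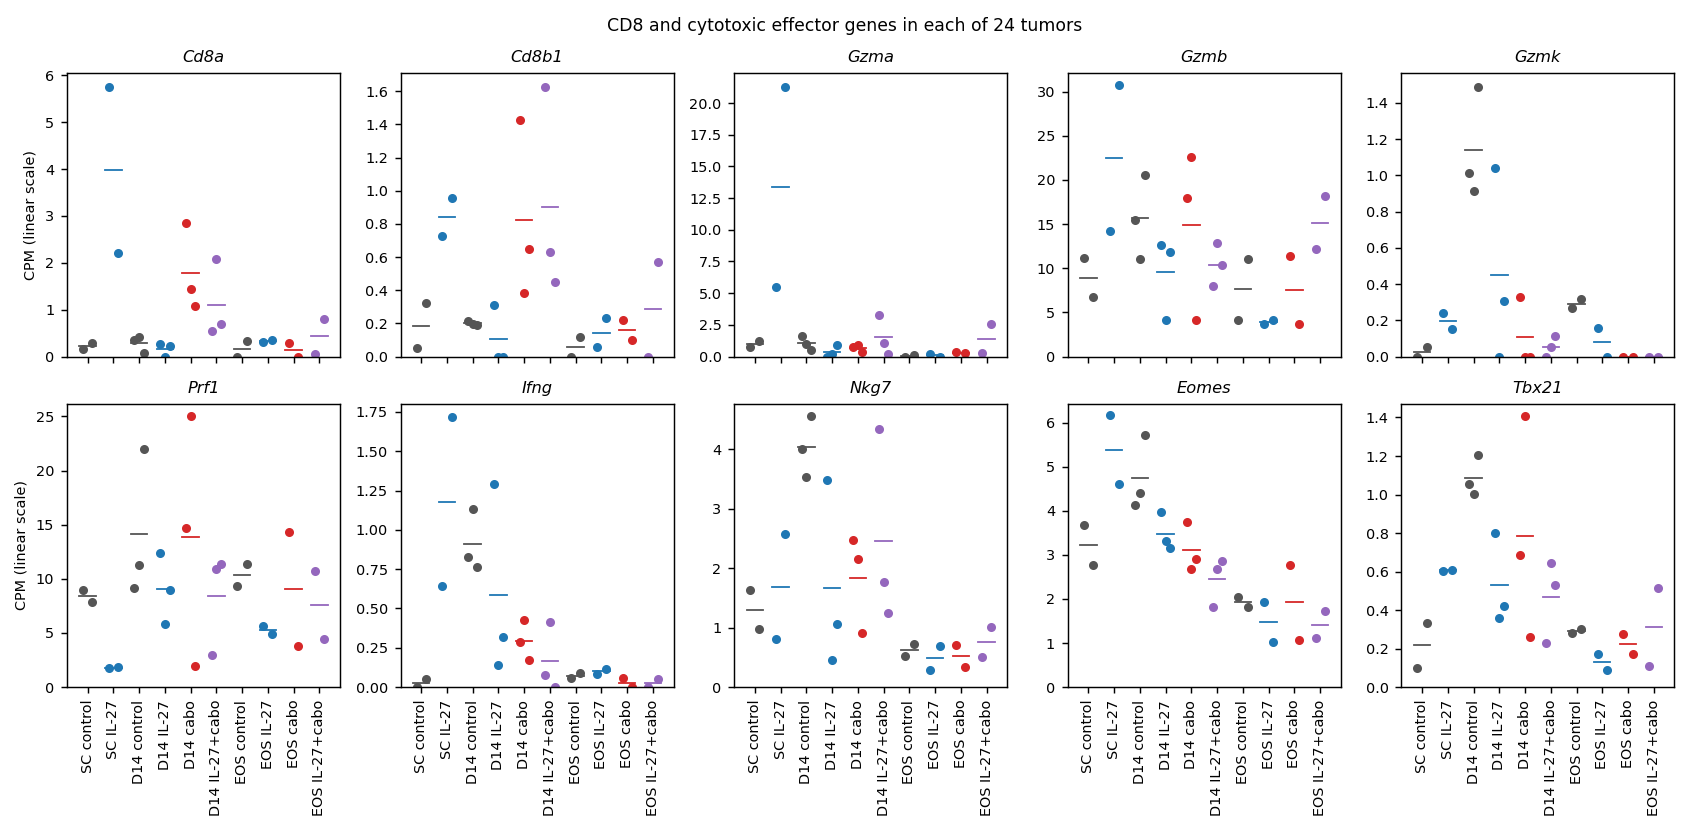
CPM of each of the 10 genes (vertical axis, linear from 0, a scale of its own per gene) in each of 24 tumors (points) of the 10 groups, with bars at group means. Cd8a and Cd8b1 stand high in SC tumors with IL-27 and in day 14 tumors with cabo, while Gzmk, Ifng, Nkg7 and Tbx21 stand high in the 3 day 14 control tumors. Ifng also stands high in SC tumors with IL-27, and the highest Tbx21 value is in a day 14 tumor with cabo.

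The first comparison asked what the IL-27 vector did in SC tumors. Cd8a, Gzma and Ifng rose and Prf1 fell with IL-27, and the other 6 members did not pass the test. Of 10 members, 4 passed an adjusted p of 0.05, where 20% of all 19360 tested genes did. The 3 that rose compare with 3.52% of all genes and the 1 that fell with 16.5%. At an unadjusted p under 0.05 there were 5 members, against 35.4% of all genes. The median log2 fold change of all 10 members was 1.83, against 0.04 over all tested genes. The groups did not overlap for 9 members (8 higher and 1 lower with IL-27), which 66.9% of all genes tested also showed. Cd8b1, Gzmk, Ifng and Tbx21 passed the filter on low counts only through the IL-27 tumors. They add no support to the counts above or to that median.

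Cd8a had 476 and 172 counts with IL-27, and 12 and 22 counts in the control tumors. It was 18.2-fold higher (log2 fold change 4.19 ± 0.79 SE, edgeR adjusted p = 0.0113, n = 2 against 2). Cd8b1 had 60 and 74 counts with IL-27 and 4 and 24 without, a log2 fold change of 2.18 ± 1.07 that did not pass the test (adjusted p = 0.195). Both chains were thus higher in each IL-27 tumor than in either control tumor.

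Gzma, the granzyme that NK cells hold in quantity, had 456 and 1650 counts with IL-27 and 61 and 90 without (log2 fold change 3.76 ± 0.74, edgeR adjusted p = 0.0132). Ifng had 53 and 133 counts with IL-27 and 0 and 4 without (log2 fold change 5.39 ± 1.41, adjusted p = 0.0379). Ifng, like Gzmk, Cd8b1 and Tbx21, passed the filter on low counts here only through the IL-27 tumors, so its call and its part in the count of 4 are a description of those tumors. Prf1 had 142 counts in each IL-27 tumor and 708 and 588 in the control tumors, a log2 fold change of -2.22 ± 0.45 (adjusted p = 0.0156). The IL-27 tumors thus held more granzyme A and interferon gamma transcripts and fewer perforin transcripts than either control tumor.

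Gzmb had 1178 and 2381 counts with IL-27 and 884 and 506 without (log2 fold change 1.34 ± 0.49, adjusted p = 0.0996). Eomes (510 and 357 counts against 292 and 207), Tbx21 (50 and 47 against 8 and 25) and Gzmk (20 and 12 against 0 and 4) were also higher in both IL-27 tumors without passing the test. Nkg7 overlapped between the groups, at 67 and 199 counts against 129 and 73.

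Of 20 tested genes of the list of granule machinery and death ligands, 2 rose, 6 fell and 12 did not pass the test (median log2 fold change -0.17). The 4 with the smallest p were granzymes of the cluster on chromosome 14 that holds Gzmb: Gzmf (log2 fold change -4.22 ± 0.46), Gzmd (-3.96 ± 0.45), Gzmg (-4.68 ± 0.56) and Gzme (-4.48 ± 0.60). Of 9 NK cell receptor genes 4 rose (median 1.90), led by Klrk1 (2.09 ± 0.39) and Klra7 (1.94 ± 0.49). Of 15 T cell genes Cd3g (2.53 ± 0.50), Cd28 (2.69 ± 0.54) and Cd2 (2.23 ± 0.54) rose and Zap70 fell (median 0.89), with Zap70 at 0 counts in both IL-27 tumors and at 108 and 57 in the control tumors. Of 13 regulators of cytotoxic and Th1 cells 3 rose (Il12rb2, Il18rap and Il18r1) and Klf2 fell (median 0.49), and of 6 checkpoint receptor genes Ctla4 rose (3.94 ± 0.65). Of 13 tested genes of the interferon gamma receptor and its targets 3 rose, Cxcl9 (2.72 ± 0.46), Cd274 (2.21 ± 0.49) and Gbp2 (1.78 ± 0.43), and the receptor chain Ifngr2 fell (-1.56 ± 0.33).

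Markers of other cells moved in the same tumors. The summed level of the 20 skeletal muscle genes was 498 and 1418 CPM with IL-27 against 55.6 and 108 CPM, that of 8 marrow myeloid genes 37.7 and 38.0 against 0.883 and 1.97 CPM, and that of 8 mast cell genes 68.7 and 100.3 against 36.4 and 43.7 CPM. Of the 8 mast cell genes 6 had a positive log2 fold change, but the only 1 that passed the test fell. Of 6 tested tumor epithelium genes Hras (-3.89 ± 0.54) and Krt8 (-3.81 ± 0.69) fell and none rose. Of 5 cDC1 genes, those of a dendritic cell type, 1 fell, Flt3 (-1.93 ± 0.40), and none rose (median 1.18), with a summed level of 16.8 and 20.9 against 26.1 and 33.0 CPM. Their part in the result was not tested. Without control tumor 1 none of the 10 members passed in edgeR (adjusted p of Cd8a 0.0887, of Prf1 0.0634). After removing, library by library, the trends in GC and length, 2 passed (Cd8a and Gzma), and the log2 fold change of Prf1 was -1.25 (adjusted p = 0.118).

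**Figure D2:**
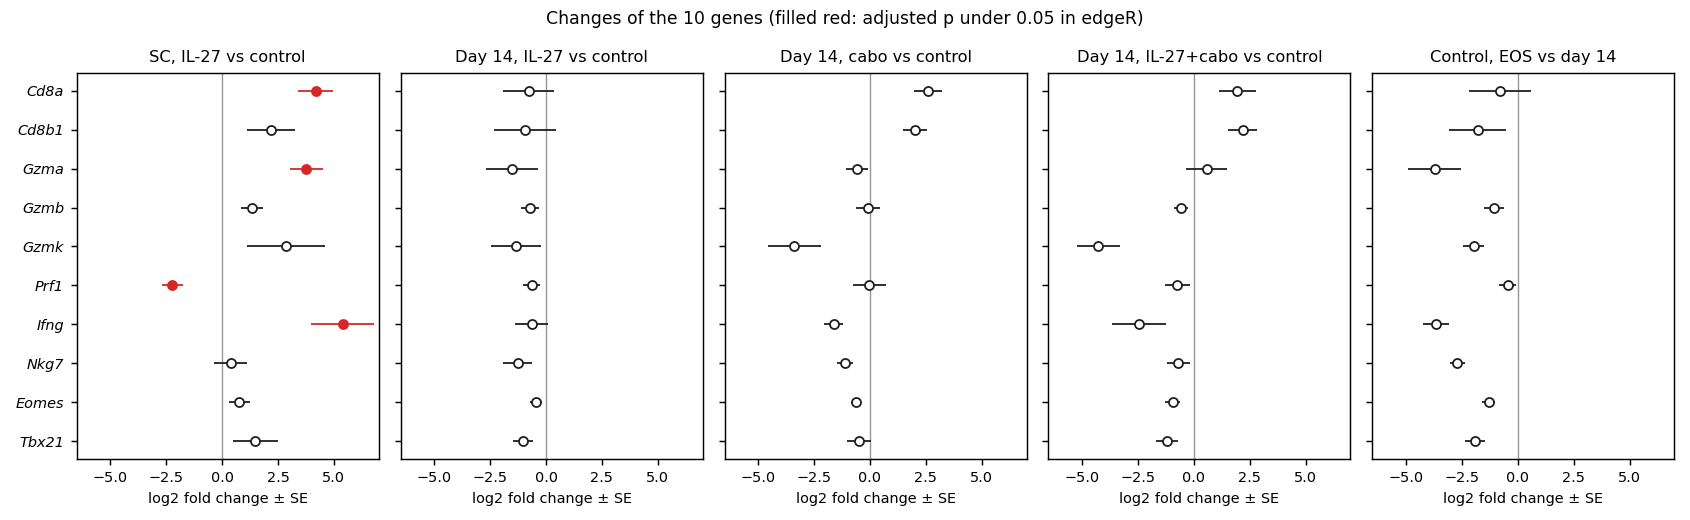
Log2 fold change of each gene (horizontal axis, bars ± SE from edgeR) in 5 comparisons, with filled red points for an adjusted p under 0.05. Cd8a, Gzma and Ifng lie to the right and Prf1 to the left in SC tumors with IL-27, and in day 14 tumors with cabo the CD8 genes lie to the right of 0 and Gzmk, Ifng, Nkg7 and Eomes to the left.

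The second comparison asked what cabo did in intratibial tumors at day 14. The CD8 transcripts and several effector transcripts went opposite ways: Cd8a and Cd8b1 were higher in each cabo tumor than in any control tumor, and Gzmk, Ifng, Nkg7 and Eomes were lower in each. None of the 10 members passed an adjusted p of 0.05 in edgeR, where 1.89% of 18627 tested genes did. At an unadjusted p under 0.05 there were 6 members, against 18.9% of all genes. The groups did not overlap for those 6, against 27.1% of all genes. Of all genes 1.20% rose. DESeq2 called 4 of them (Cd8a, Cd8b1, Ifng and Nkg7), where it called 7.21% of the 18357 genes to which it gave an adjusted p. Cd8a passed the filter on low counts only through the cabo tumors, since 2 of 3 control tumors were over the count minimum. Gzmk passed it only through the control tumors, so neither gene adds support to the counts above.

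Cd8a had 199, 104 and 74 counts with cabo and 26, 33 and 6 in the control tumors (log2 fold change 2.62 ± 0.63, edgeR adjusted p = 0.0859, n = 3 against 3). In CPM that is 1.78 ± 0.94 against 0.286 ± 0.181 (SD, n = 3). Cd8b1 had 100, 28 and 45 counts with cabo and 16, 15 and 14 in the control tumors (log2 fold change 2.02 ± 0.55, adjusted p = 0.122). The 3 control tumors were close to each other for Cd8b1, and each cabo tumor was above them.

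Ifng had 20, 31 and 12 counts with cabo and 61, 88 and 56 in the control tumors (log2 fold change -1.62 ± 0.44, edgeR adjusted p = 0.118). Gzmk, a granzyme of memory-like T cells, had 23, 0 and 0 counts with cabo and 75, 71 and 109 without (log2 fold change -3.37 ± 1.20, adjusted p = 0.192). Nkg7 had 173, 156 and 63 counts against 296, 274 and 333 (log2 fold change -1.13 ± 0.36, adjusted p = 0.158). For these genes the control tumors formed the high group, and the cabo tumor of mouse 21 held all the Gzmk counts of its group. Gzmk passed the filter on low counts only through the control tumors. Without the tumor of mouse 21 the cabo group held 0 counts of Gzmk in both tumors, and the adjusted p of 0.0222 then rests on those zeros.

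Eomes had 262, 195 and 201 counts with cabo and 305, 342 and 418 without (log2 fold change -0.62 ± 0.22, edgeR adjusted p = 0.192). Tbx21, its T-box relative, overlapped between the groups, at 48, 102 and 18 counts with cabo and 78, 78 and 88 without. So did Gzma, at 54, 68 and 27 against 120, 76 and 38 counts.

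The killing molecules of highest level spread within the cabo group more than between the groups. Gzmb had 1254, 1639 and 287 counts with cabo and 1142, 856 and 1500 without (log2 fold change -0.08 ± 0.53, edgeR adjusted p = 0.954). Prf1 had 1032, 1815 and 135 counts with cabo and 675, 875 and 1611 without (-0.03 ± 0.74, adjusted p = 0.987). The cabo tumor of mouse 27 was the lowest of its group in both genes and also in Cd8a, Gzma, Ifng, Nkg7 and Tbx21, though its Cd8a count of 74 was above that of every control tumor.

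T cell genes that are not members fell in these tumors. Of 15, none rose and 11 fell in edgeR, where 0.693% of all tested genes fell, with a median log2 fold change of -1.46 against -0.01 over all genes. The 4 with the smallest p were Trac (-1.63 ± 0.15), Cd247 (-1.82 ± 0.17), Cd3e (-1.97 ± 0.19) and Trbc2 (-1.80 ± 0.20), which encode parts of the T cell receptor complex. Their summed level was between 35.3 and 49.8 CPM with cabo and between 127 and 133 CPM in the control tumors. Of 6 checkpoint receptor genes 2 fell, Lag3 (-2.12 ± 0.26) and Tox (-2.33 ± 0.33), and none rose. Between these groups Cd8a was higher where the receptor genes were lower. The r of Cd8a with Cd3e was -0.12 within the 12 day 14 tumors. Over the 20 intratibial tumors it was 0.31, and 0.63 centred on the group means.

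Other lists gave fewer calls. Of 14 genes of the interferon gamma receptor and its targets 13 had a positive log2 fold change (median 0.73) and 1, Cd274, the ligand of PD-1, rose (0.94 ± 0.15, edgeR adjusted p = 0.026). None of 20 tested granule genes (median 0.18; smallest p for Srgn, 0.51 ± 0.14, and Lyst, 0.45 ± 0.13), of 13 regulators of cytotoxic and Th1 cells (median 0.14; Il18rap, 0.65 ± 0.17, and Zeb2, 0.34 ± 0.11), of 9 NK cell genes (median -0.18) or of 5 cDC1 genes (median -0.26) passed. Neither did any of 5 B cell genes (median -0.36), 5 tested mast cell genes (median -1.78), 6 tested marrow myeloid genes (median -1.37) or 6 tested tumor epithelium genes (median 0.24).

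Skeletal muscle transcripts moved with cabo. Of 20 muscle genes 8 rose (median log2 fold change 4.36), and their summed level was between 1527 and 2294 CPM with cabo, between 1975 and 5663 CPM with IL-27+cabo and between 49.4 and 235 CPM in control tumors. With IL-27 alone it was 77.6, 162 and 2528 CPM, so that the tumor of mouse 8 was above every tumor given cabo alone. At EOS it was 1238 and 204 CPM with cabo and at most 341 CPM in the other tumors. The part of this in the values of the 10 genes was not tested. NK cell genes did not separate the groups, with a summed level between 24.3 and 31.4 CPM with cabo and between 25.2 and 34.3 CPM without.

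**Figure D3:**
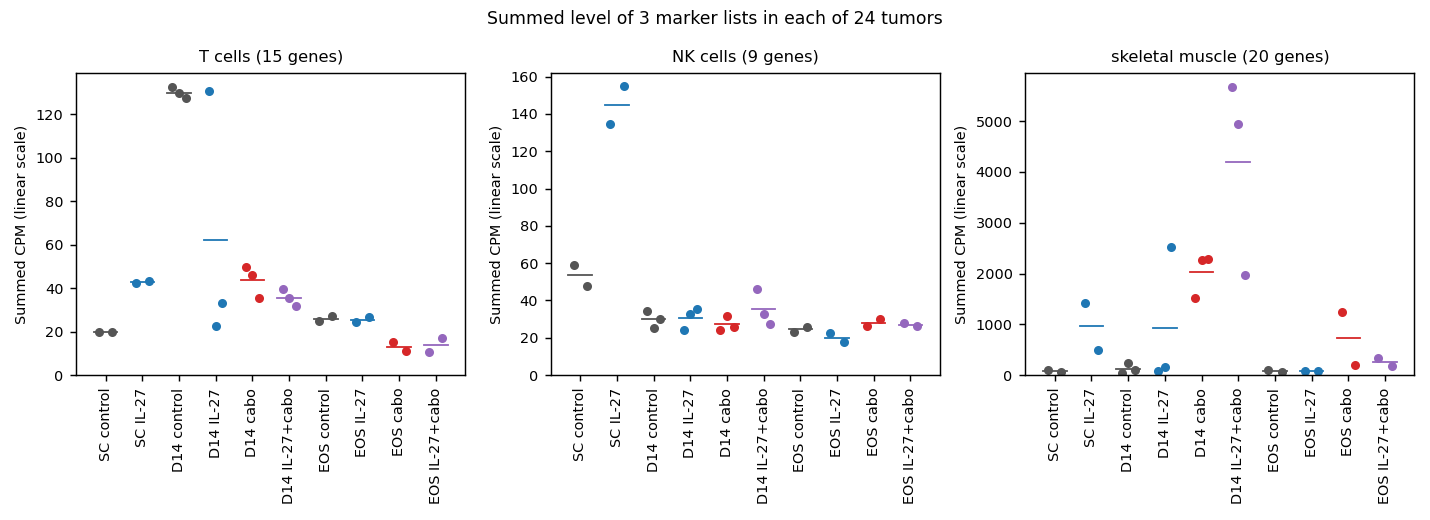
Summed CPM (vertical axis, linear from 0) of 3 lists of marker genes in each of 24 tumors, with bars at group means. T cell genes stand highest in the 3 day 14 control tumors and in 1 IL-27 tumor, and muscle genes stand high in day 14 tumors with cabo and also in 1 day 14 IL-27 tumor (2528 CPM), 1 EOS cabo tumor (1238 CPM) and the SC IL-27 tumors (498 and 1418 CPM).

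In IL-27+cabo tumors at day 14, 3 members had a positive and 7 a negative log2 fold change, and no member passed in edgeR, where 0.0640% of 18750 tested genes did (0.0213% higher and 0.0427% lower). At an unadjusted p under 0.05 there were 4 members, against 6.20% of all genes. The groups did not overlap for 6 members, against 15.3% of all genes. DESeq2 called 1, Gzmk, and 1.95% of 22793 genes.

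Cd8a had 28, 155 and 50 counts with IL-27+cabo, and the lowest of these was between the control values of 26 and 33 counts (log2 fold change 1.95 ± 0.81, edgeR adjusted p = 0.799). Cd8a passed the filter on low counts here only through the IL-27+cabo tumors, so its place among the 6 members with groups apart is a description. In CPM, which here use the normalization factor of 0.820 of that library, the tumor of mouse 20 was at 0.536 and the highest control tumor at 0.425. Cd8b1 had 85, 47 and 32 counts, all above the 14 to 16 counts of the control tumors (log2 fold change 2.17 ± 0.65, adjusted p = 0.495). Gzmk had 0, 4 and 8 counts, all below the 71 to 109 counts of the control tumors (log2 fold change -4.27 ± 0.94, adjusted p = 0.246). Gzmk passed the filter on low counts here only through the control tumors, so neither the DESeq2 call nor the edgeR adjusted p of 0.042 without the tumor of mouse 20 adds support.

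Ifng, also kept only through the control tumors, had 4, 31 and 0 counts (log2 fold change -2.43 ± 1.20), Eomes 95, 200 and 204 counts (-0.94 ± 0.33) and Tbx21 12, 48 and 38 counts (-1.20 ± 0.51) with IL-27+cabo, each below every control tumor without passing the test. Gzma, Gzmb, Prf1 and Nkg7 overlapped with the control tumors in CPM. For Nkg7 this rested on the same library of mouse 20: its counts of 227, 132 and 89 were all below the 274 to 333 of the control tumors, but its 4.34 CPM was above the lowest control tumor. Of 15 T cell genes 1 fell, Cd3e (-2.67 ± 0.26, edgeR adjusted p = 0.041), and their summed level was between 31.9 and 39.4 CPM. In CPM with that normalization, the CD8 chains were thus above, and Gzmk, Ifng, Eomes and Tbx21 below, the control tumors.

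With IL-27 alone at day 14, all 10 members had a negative log2 fold change and none passed in edgeR, where 0% of 18519 tested genes did. DESeq2 called none of them either. The unadjusted p was under 0.05 for 1 member, Tbx21, against 2.76% of all genes, and the groups did not overlap for 3 members, against 7.79% of all genes. Cd8b1, Gzma, Gzmk and Ifng passed the filter on low counts only through the control tumors, so their signs add nothing to the count of 10. Cd8a had 19, 0 and 16 counts with IL-27, within or below the range of the control tumors. Cd8b1 had 22, 0 and 0 counts, 1 tumor above and the others below the 14 to 16 counts of the control tumors. Tbx21 had 57, 23 and 29 counts (log2 fold change -1.04 ± 0.44), Nkg7 248, 29 and 73 counts (-1.27 ± 0.65) and Eomes 282, 212 and 217 counts (-0.45 ± 0.25).

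The IL-27 tumors were uneven. The tumor of mouse 4 had 92 Ifng, 74 Gzmk and 248 Nkg7 counts, while that of mouse 6 had 9, 0 and 29. The summed T cell genes were 130.6 CPM in the tumor of mouse 4, within the range of the control tumors, and 22.6 CPM in that of mouse 6. The tumor high in T cell genes was the one high in Ifng, Gzmk and Nkg7. Gzma went the other way, with 0 counts in the tumor of mouse 4 and 13 and 61 in those of mice 6 and 8.

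Adding IL-27 to cabo, and cabo to IL-27, gave no call among the 9 members that passed the filter in each (edgeR, 0% of 18662 and 0% of 18570 tested genes called, and no member by DESeq2). In the first, no member's groups were apart (12.4% of all genes' were) and no unadjusted p was under 0.05, against 1.92% of all genes. In the second no member had an unadjusted p under 0.05 either, against 4.85%. There, Cd8a (2.71 ± 1.20) and Cd8b1 (3.08 ± 1.55) were higher and Eomes (-0.51 ± 0.36) was lower in every IL-27+cabo tumor than in any IL-27 tumor, against 12.9% of all genes with groups apart. Cd8a and Cd8b1, with Gzma, passed the filter there only through the IL-27+cabo tumors, so their separation is a description of those tumors. Gzmk was left out of both by the filter on low counts. The interaction of IL-27 and cabo, the departure from the sum of both log2 changes, called no member of 10 (edgeR, 0% of 19899 genes; lowest unadjusted p 0.109, for Nkg7, and 1.88% of all genes under 0.05). For Cd8a its value was 0.08 ± 1.26.

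At EOS no member passed in any of 3 comparisons with the control tumors (edgeR, 0% of 20026 tested genes in each; DESeq2 called none of them). At an unadjusted p under 0.05 there were 0 members with IL-27, 1 with cabo and 2 with IL-27+cabo, against 3.25%, 8.90% and 14.2% of all genes. Ifng had at most 8 counts in an EOS tumor and was left out by the filter, so 9 members were tested. Of these 9 the groups did not overlap for 3, 3 and 4, against 32.8%, 43.1% and 42.4% of all genes. Cd8a had 0 and 23 counts in control tumors, 21 and 24 with IL-27, 21 and 0 with cabo and 4 and 61 with IL-27+cabo. Cd8b1 had 0 and 8, 4 and 16, 16 and 7, and 0 and 43 counts in the same order. The CD8 transcripts were thus spread over the groups, and the higher values with cabo seen at day 14 were not detectable here (log2 fold change of Cd8a -0.20 ± 1.97).

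Gzmk was at 0 in all 4 EOS tumors that received cabo and at 19 and 22 counts in the control tumors. With a floor of 3 counts per library, the mean of the control tumors was 6.80-fold above the floor with cabo and 6.92-fold above that with IL-27+cabo. These folds leave out the spread between the control tumors and are not bounds on the change (edgeR adjusted p = 0.532 and 0.308). Gzmk passed the filter on low counts at EOS only through the control tumors, so these values describe them. Gzma had 19 and 194 counts with IL-27+cabo and 0 and 11 in control tumors (log2 fold change 4.14 ± 1.77, adjusted p = 0.351). Gzmb had 898 and 1373 counts with IL-27+cabo, 294 and 767 in control tumors, 257 and 290 with IL-27 and 835 and 253 with cabo. Prf1 had 789 and 338 counts with IL-27+cabo and 666 and 788 in control tumors. Gzmb and Prf1 thus had counts above 250 in every EOS tumor, while Gzmk had at most 22 and Ifng at most 8.

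Between day 14 and EOS all 10 members had a negative log2 fold change in the control group, with a median of -1.84 against 0 over all genes. None passed in edgeR, where 0.104% of 19292 genes did, and 6 had an unadjusted p under 0.05, against 13.1% of all genes. For 7 members every EOS tumor was below every day 14 tumor, against 33.4% of genes with groups apart in either direction. DESeq2 called 6 members lower (Gzma, Gzmk, Ifng, Nkg7, Eomes and Tbx21), where it called 4.05% of the 20312 genes with an adjusted p. Gzma and Ifng passed the filter on low counts here only through the day 14 tumors, as did Cd8a and Cd8b1, so these 4 add no support to the counts above.

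Nkg7 had 37 and 50 counts at EOS and 296, 274 and 333 at day 14 (log2 fold change -2.71 ± 0.33, edgeR adjusted p = 0.0519). Ifng, kept only through its day 14 counts, had 4 and 6 counts against 61, 88 and 56 (-3.66 ± 0.59, edgeR adjusted p = 0.108). Eomes had 147 and 126 against 305, 342 and 418 (-1.30 ± 0.28), and Tbx21 20 and 21 against 78, 78 and 88 (-1.91 ± 0.43). Prf1 had 666 and 788 against 675, 875 and 1611 (-0.46 ± 0.37) and overlapped, as Gzmb and Cd8a did. Of 15 T cell genes 7 fell (median -2.51), Cd4, Cd3g, Cd247 and Cd3e first, and of 6 checkpoint receptor genes Tox and Pdcd1 fell.

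With cabo, all 9 members tested had a negative log2 fold change at EOS, none past the test in edgeR (2.09% of 19144 genes called; 4 members at an unadjusted p under 0.05 against 17.6%, and 5 lower in every EOS tumor against 36.4% with groups apart). Cd8a had 21 and 0 counts at EOS and 199, 104 and 74 at day 14 (log2 fold change -3.59 ± 1.11, adjusted p = 0.172), and Cd8b1 16 and 7 against 100, 28 and 45 (-2.34 ± 0.73, adjusted p = 0.177). Cd8a, Cd8b1 and Ifng passed the filter only through the day 14 tumors, so these values describe those tumors. DESeq2 called 2 members, Cd8b1 and Nkg7, where it called 9.47% of 17427 genes, and edgeR called Cd8a without the EOS cabo tumor of mouse 19, which leaves 1 EOS tumor, with 0 Cd8a counts, assumed to vary like the day 14 tumors. Of 15 T cell genes 4 fell (median -2.30). With IL-27 (10 members tested, 3 at an unadjusted p under 0.05 against 5.05% of genes) and with IL-27+cabo (8 tested, 0 against 3.83%), edgeR and DESeq2 called none (0% of genes in edgeR). For 5 and 2 of the 10 members the groups were apart, against 24.4% and 22.2% of genes. With IL-27, Ifng and Tbx21, among those 5, and Gzma and Gzmk passed the filter only through the day 14 tumors, and Cd8a, also among the 5, was higher at EOS. Whether a treatment's change differed between EOS and day 14 was tested for all 10 members and 3 treatments. EdgeR called none (0%, 0.0788% and 0.0788% of 21563 genes called for IL-27, cabo and IL-27+cabo). None had an unadjusted p under 0.05 in edgeR, against 1.93%, 4.11% and 9.14% of all genes. DESeq2 called none either, where it called 0.00906%, 0.375% and 1.08% of genes. For Cd8a with cabo, the log2 fold change at EOS minus that at day 14 was -2.82 ± 2.11.

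The last comparison asked which genes followed Cd8a over the 20 intratibial tumors, on log2 CPM. Of the 9 other members 1 did so past an adjusted p of 0.05 in limma, its partner chain Cd8b1, where 2.00% of 21562 genes did. For Cd8b1, Pearson's r was 0.79 (permutation p = 7e-05, 100000 resamples, two-sided) and Spearman's rho 0.85 (permutation p = 1e-05, the smallest they can give), with an adjusted p of 0.00925 over all genes in limma. Without the 2 tumors farthest from the median of Cd8a, r was 0.80. It was 0.77 within 12 day 14 tumors (permutation p = 0.00405), and 0.53 there without the 2 tumors farthest from the median. It was 0.73 within 8 EOS tumors (exact permutation p = 0.0437), and 0.93 without the 2 farthest.

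None of the effector genes passed over all genes, and over the 20 tumors their r values with Cd8a were below that of Cd8b1, a difference that was not tested. Gzmb had an r of 0.51 (permutation p = 0.0231), Nkg7 0.48 (permutation p = 0.0342) and Gzma 0.45 (permutation p = 0.0446), with adjusted p in limma of 0.175, 0.221 and 0.257. Without the 2 tumors farthest in Cd8a these r values were 0.31, 0.31 and 0.50, so those of Gzmb and Nkg7 rested in part on those tumors. Tbx21 had an r of 0.38, Ifng 0.32, Eomes 0.25, Prf1 0.12 and Gzmk 0.01, with permutation p from 0.103 to 0.968. The 9 relations were computed in each of 3 sets of tumors.

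The relation differed with what was held fixed. Within day 14 the r of Cd8a with Ifng was -0.08, with Gzmk -0.15 and with Eomes -0.34 (permutation p = 0.807, 0.635 and 0.286). Without the 2 day 14 tumors farthest from the median of Cd8a these values were -0.33, -0.77 and -0.64, and r moved from 0.24 to -0.46 for Nkg7 and from 0.36 to -0.25 for Gzmb. With the group as a term, r was 0.68 for Gzmb, 0.66 for Ifng and 0.63 for Cd8b1, and no gene of 21562 passed in limma (0%). Before adjustment, 4 of the 9 members (Gzmb, Ifng, Cd8b1 and Nkg7) had a p under 0.05 in limma with the group as a term, against 6.54% of all genes. Within EOS none of the effector genes had an exact permutation p under 0.05, and counts of Cd8a there were at most 61.

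**Figure D4:**
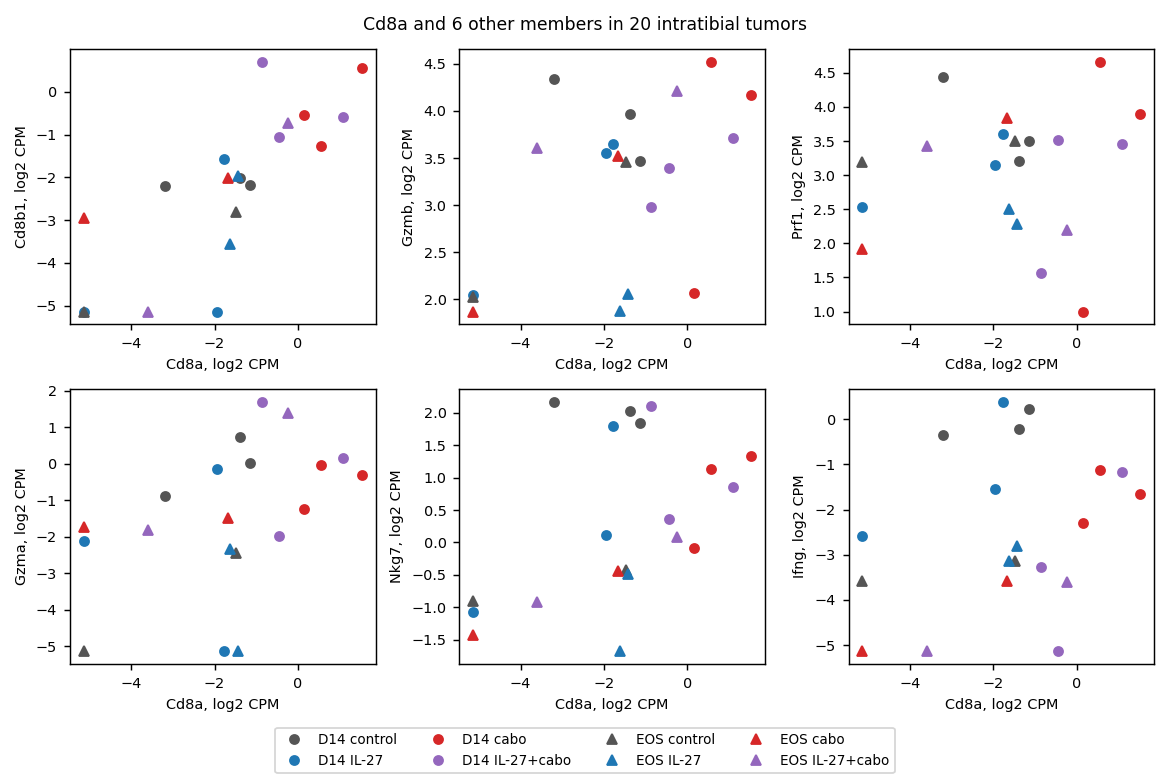
Log2 CPM of Cd8a (horizontal axis) and of 6 other members (vertical axes) in 20 intratibial tumors, circles for day 14 and triangles for EOS, coloured by treatment. Cd8b1 rises with Cd8a (r = 0.79), while Prf1 (r = 0.12) and Ifng (r = 0.32) are spread, with day 14 control tumors high in Ifng at low Cd8a.

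The 10 genes most like Cd8a in Pearson's r over the 20 tumors were Gpr153 (0.89), Islr (0.86), Gxylt2, Ltbp2, Cd7 (0.85 each), Cd209a, Sectm1a, Rxra (0.84 each), Casp12 and Ikbke (0.83 each). Of these, Cd7 is a surface protein of lymphocytes and Cd209a a lectin of dendritic cells. No gene of the T cell list was among them, and 0.148% of genes had a higher r with Cd8a than Cd8b1 did.

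The likeness of the effector genes among themselves is given as r over the same 20 tumors, without a test. The T-box genes Eomes and Tbx21 had the highest r of any pair of members (0.83). Tbx21 had an r of 0.75 with Nkg7, 0.73 with Ifng and 0.72 with Gzmb, and Ifng and Eomes had 0.75. Gzmb and Prf1 had 0.69. Centred on the group means, r was 0.54 for Eomes and Tbx21, 0.35 for Nkg7 and Tbx21, 0.27 for Ifng and Eomes and 0.09 for Nkg7 and Eomes, so those values rested in part on differences between groups. Centred in the same way, r was 0.79 for Gzmb and Prf1, 0.70 for Gzmb and Tbx21, 0.65 for Ifng and Nkg7 and 0.53 for Ifng and Tbx21. Gzma had its highest r among members with Gzmb (0.51) and had -0.03 with Prf1 and -0.09 with Gzmk. All points share depth and the low counts of several genes.

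**Figure D5:**
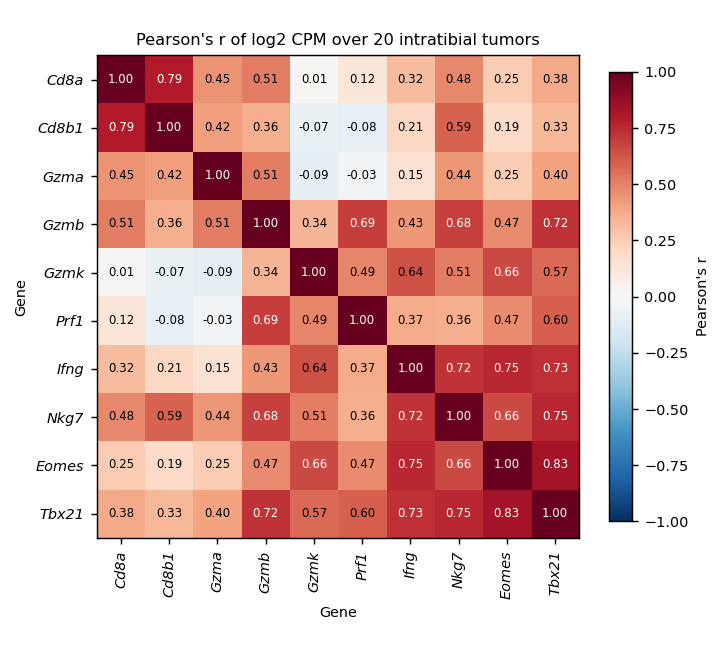
Pearson's r of log2 CPM between each pair of the 10 genes over 20 intratibial tumors (both axes genes, colour from -1 to 1). Cd8a and Cd8b1 pair with each other (0.79), and Tbx21, Eomes, Ifng and Nkg7 have r from 0.66 to 0.83 with each other.

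Genes outside the list, looked up for the other members after the values were seen, were as follows. Ifng had r of 0.89 with Lck, Trac and Cd27 and 0.86 with Cd3e, all genes of T cells, and Gzmk had 0.87 with the T cell receptor segment Trbv31 and 0.82 with Lck and Zap70. Prf1 had 0.83 with Gzmf, 0.80 with Gzmd and 0.77 with Gzme, within groups 0.90, 0.87 and 0.84. Gzma had 0.69 with Ncr1, the receptor that marks NK cells, and was the only member past the test when Ncr1 took the place of Cd8a (limma adjusted p = 0.0239, where 1.93% of genes passed).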

How the data were processed

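RNA from 24 tumors was sequenced from both ends after stranded poly(A) library preparation on an Illumina NovaSeq system. The submitters' processing notes name FastQC, HISAT2, StringTie, DESeq2 and the build GRCh38, although the identifiers are those of mouse genes. The table the authors deposited holds raw counts, whole numbers for each Ensembl identifier, and the program that counted them is not given in the sources used here. No pair of libraries of a group held identical values and no column belonged to other samples. Identifiers were joined to GENCODE M21 (GRCm38), which held 55141 of 55401.

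Tests used edgeR 4.0.16 under R 4.3.3 (filterByExpr, TMM normalization, quasi-likelihood F test), with Benjamini-Hochberg adjustment over all genes that passed the filter and a threshold of 0.05. SE is the absolute log2 fold change divided by the square root of F. Each fit held the tumors of its own comparison, but the 4 EOS groups shared a fit, the interaction used all day 14 groups and changes between times used all intratibial groups. DESeq2 1.42.0 was an alternative, beside RLE normalization, no filter, removal of GC content and length trends (splines with 5 degrees of freedom), counts divided by 4, all tumors in one fit and leaving out each tumor. CPM use effective library sizes, and log2 CPM a prior count of 2. Likeness to Cd8a was tested with limma 3.58.1, with 100000 resamples for single correlations and every order of the tumors where there were 8. The fits were tested on simulated data.

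The 10 genes, and 12 lists of 131 other genes for related pathways and cell types, were chosen with earlier results of these data known. From each list the genes named are at most 4 with the smallest p past the threshold, or the 2 with the smallest p where none passed, and the 10 genes with the highest r to Cd8a are named. Genes most like the other members were looked up after the values were seen.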

Additional observations from a re-analysis of the deposited data

Results flagged for a closer look

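In 4 cases every IL-27 tumor was above the control tumors in the SC model and below them in the intratibial model. Of all tested genes, 31.7% were higher in every IL-27 tumor in the SC model. The share lower in every IL-27 tumor was 4.43% at day 14 and 16.5% at EOS. The share of all genes that did both was not computed. The log2 fold change of Eomes was 0.77 in SC tumors and -0.45 at day 14. That of Tbx21 was 1.48 in SC tumors, -1.04 at day 14 and -1.17 at EOS. That of Gzmk was 2.85 in SC tumors and -1.88 at EOS. In SC tumors Tbx21 and Gzmk passed the filter on low counts only through the IL-27 tumors. At EOS Gzmk passed it only through the control tumors. The cases of these genes are thus a description of those tumors. The difference between the models was not tested, the models differ in site, harvest time and cells injected as well, and none of these values passed an adjusted p of 0.05 in edgeR.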

How the results depend on the processing

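Of 260 repeats of the 18 counts of members called, 247 were within 1.5 times the reported count, most of them 0 in both. Of 242 repeats of single members' fold changes, 210 stayed on the same side of the threshold, 13 were no longer past it, 19 were newly past it and 0 turned a called direction. In SC tumors with IL-27, 4 members passed. There were 2 once GC content and length trends were removed, 1 with all tumors in one fit, and between 0 and 4 when 1 tumor was left out, the 0 without control tumor 1. Replicate numbers of the SC libraries did not pair the tumors (correlation of deviations 0.03 over 19360 genes). With them as a replicate block 4 members passed, and with the block and the GC and length correction 4, with Eomes in place of Prf1. Over all genes the count was 3880, and 1668 once GC and length trends were removed, 2093 without control tumor 1, 7076 with all tumors in one fit and 5968 by DESeq2.

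With cabo at day 14, where edgeR called 0 members, DESeq2 called 4, counts divided by 4 gave 1 (Cd8a), and leaving out 1 tumor gave between 0 and 1. With IL-27+cabo DESeq2 called 1, and leaving out 1 tumor gave between 0 and 1. For EOS against day 14, DESeq2 called 6 in the control group and 2 with cabo, where leaving out 1 tumor gave between 0 and 1. Over all genes DESeq2 called 1324 against 352 with cabo at day 14, 445 against 12 with IL-27+cabo, 823 against 20 in the control group and 1650 against 400 with cabo over time. The cause of these differences between tools was not tested. Likeness to Cd8a called 1 member, and 0 within day 14 tumors alone and with the group as a term. Without the tumor of mouse 20, chosen after seeing the data, it called 1. Genes with under 20 counts in most tumors, such as Gzmk, Ifng and Cd8b1, limit what can be told apart.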
